A study of Mus musculus with 17 samples.

Results

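The clearance of shed photoreceptor outer segments was followed through 10 genes of the retinal pigment epithelium (RPE): the receptors Mertk, Axl and Tyro3, their ligands Gas6 and Pros1, the integrin subunits Itgav and Itgb5, the integrin ligand Mfge8, the motor Myo7a and the tubby protein gene Tub. They were chosen by symbol as known receptors, bridges and motors of this process, with earlier results of these data known, and all 10 were among the 22253 genes of the count table. The table held 17 SMART-Seq RNA-seq libraries, each from a hand-picked pool of RPE cells, 10 to 15 cells by the sample labels and somewhat fewer by the methods, of Serpine3GFP/+ mice at 2 months. Every library, controls included, carried this heterozygous allele, in which GFP is inserted at the Serpine3 gene of C57BL6/J mice. The groups were GFP+-RPE of the periphery (labelled GFP+, n = 6), GFP--RPE of the periphery (labelled ctrl periphery, n = 5) and GFP--RPE of the center (labelled ctrl center, n = 6), with no treatment. They came from 7 numbered mice, of which 5 gave all 3 groups. Mouse 3 gave a GFP+ library only and mouse 6 a central library only, and mouse 1 carries a pair of animal numbers in the labels.

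RPE cells bind and engulf the tips that photoreceptors shed each day, and failure of this step leaves debris under the retina. The integrin alpha v beta 5, made of the products of Itgav and Itgb5 and bridged by the milk fat protein MFG-E8, tethers the particles. MERTK, activated by GAS6 or protein S, then drives engulfment, and loss of Mertk causes retinal degeneration. Axl and Tyro3 complete the TAM family of receptor kinases, myosin VIIa moves phagosomes and melanosomes inside the cell, and tubby can act as a bridging ligand of MERTK.

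The stretches of 250 bases before the RefSeq start of the TAM receptor genes and of their ligand genes are shown because the members of each of these families had very different levels, as described below. They are given 5′ to 3′ on the strand of the gene (build GRCm38.p6), and capitals mark each GGGCGG, read on either strand, so that a hit on the other strand appears as CCGCCC. They cover chr2:128698665-128698914 (Mertk, plus strand), chr7:25788734-25788983 (Axl, minus strand), chr2:119799264-119799513 (Tyro3, plus strand), chr8:13494536-13494785 (Gas6, minus strand) and chr16:62854057-62854306 (Pros1, plus strand).
Mertk: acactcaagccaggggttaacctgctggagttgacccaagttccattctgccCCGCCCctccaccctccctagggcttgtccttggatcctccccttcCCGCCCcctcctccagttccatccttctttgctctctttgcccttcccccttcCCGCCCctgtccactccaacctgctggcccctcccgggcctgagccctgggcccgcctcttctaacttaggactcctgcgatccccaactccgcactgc
Axl: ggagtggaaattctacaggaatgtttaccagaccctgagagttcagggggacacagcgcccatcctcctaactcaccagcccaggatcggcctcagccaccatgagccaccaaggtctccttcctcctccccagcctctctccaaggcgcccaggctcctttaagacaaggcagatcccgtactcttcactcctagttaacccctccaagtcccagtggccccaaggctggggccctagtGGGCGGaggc
Tyro3: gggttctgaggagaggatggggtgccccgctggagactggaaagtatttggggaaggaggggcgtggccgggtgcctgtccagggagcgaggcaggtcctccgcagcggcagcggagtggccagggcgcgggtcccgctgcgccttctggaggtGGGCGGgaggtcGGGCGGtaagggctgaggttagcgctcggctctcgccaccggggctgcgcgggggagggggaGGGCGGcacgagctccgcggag
Gas6: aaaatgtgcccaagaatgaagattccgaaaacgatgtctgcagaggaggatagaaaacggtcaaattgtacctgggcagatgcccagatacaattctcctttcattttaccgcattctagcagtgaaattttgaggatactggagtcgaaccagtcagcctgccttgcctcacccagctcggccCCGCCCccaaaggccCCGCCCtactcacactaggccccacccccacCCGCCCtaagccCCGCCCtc
Pros1: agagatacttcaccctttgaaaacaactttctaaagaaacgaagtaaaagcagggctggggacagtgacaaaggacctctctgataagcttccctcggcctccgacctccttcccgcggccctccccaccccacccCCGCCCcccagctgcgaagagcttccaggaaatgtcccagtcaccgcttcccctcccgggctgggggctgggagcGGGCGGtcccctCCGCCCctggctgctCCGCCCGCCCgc

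The letters GGGCGG, the core of a GC box, stood 3 times before Mertk, once before Axl and 3 times before Tyro3. They stood 4 times before Gas6 and 5 times before Pros1, where a pair of hits overlap, and 32.9% of the 27025 mouse promoter windows of this length hold them. CpG pairs numbered 7 before Mertk, 5 before Axl and 24 before Tyro3. None of the 5 windows held CACGTG (in 6.05% of all windows), CATGTG (12.2%), TAATCC (6.38%) or TATAAA (13.0%) on either strand. A match describes the letters of the window and nothing about a factor.

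The libraries held 9896118 to 22467079 counts. RPE markers were abundant in every group, with Rpe65 at a mean of 4948, 6893 and 8544 CPM (counts over library totals corrected by TMM factors) in GFP+, peripheral GFP- and central GFP--RPE, although the defining marker Best1 had 0, 1 and 6 counts in all. Serpine3 had 107 to 576 counts in every GFP+ library and 0 to 5 in the others. TMM, a scaling that sets the typical gene equal between libraries, had factors of 1.13 to 1.29 in GFP+, 0.906 to 1.27 in peripheral GFP- and 0.458 to 1.16 in central libraries, a smaller factor giving a higher CPM. With plain CPM, counts over the library total alone, a choice added after seeing the data, the median log2 fold change of all genes tested was 0.48 in GFP+ against central RPE, 0.16 against peripheral GFP--RPE and 0.32 in peripheral GFP- against central RPE, in place of 0.00067, 0.01 and 0.01. Orders and overlaps below that differ in plain CPM are given on both scales. The 13 mitochondrial genes took 0.710% to 17.2% of the counts in GFP+-RPE, 12.5% to 30.4% in peripheral GFP--RPE and 13.7% to 47.3% in central GFP--RPE, and 3 central libraries (mice 4, 5 and 7) had fewer than 7000 genes with 10 counts. Of 11 macrophage and microglia markers, 8, 6 and 6 were at 0 in every library of a group, C1qa, C1qb, Tyrobp and Lyz2 among them in all 3, and the summed level of the list (38.0 to 106 CPM in GFP+, 103 to 143 in peripheral and 70.4 to 139 in central libraries) was nearly all Csf1r. The 13 photoreceptor markers summed to 63.2 to 174 CPM, 55.2 to 154 CPM and 128 to 255 CPM in these groups, with Rom1 the highest and Rcvrn at 0 in every library. The part of these differences in any result below was not tested.

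The test was edgeR's quasi-likelihood test, which models counts by a negative binomial distribution. A gene was called where the p adjusted by the Benjamini-Hochberg method over all genes tested was under 0.01 and the log2 fold change exceeded 1 in either direction. None of the 10 phagocytosis genes was called in any of the 3 comparisons. In GFP+ against central RPE 7 of the 10 passed the filter on low counts and 0 were called, against 4 of 9286 genes (0.0431%). The counts were 9 and 0 against peripheral GFP--RPE, where 4 of 10102 genes (0.0396%) were called, and 8 and 0 between the peripheral and central GFP- groups, where 0 of 9535 genes were called and 257 had an unadjusted p under 0.05. With the mouse as a block the genes called numbered 56, 0 and 0, with no phagocytosis gene among them. At an unadjusted p under 0.05 there were 2 of the phagocytosis genes (Mertk and Itgav), 1 (Itgav) and 1 (Mertk) in these comparisons, beside 5.80%, 5.58% and 2.70% of all genes tested. The program DESeq2 called 1, Pros1, in GFP+ against central RPE, where it called 1.62% of all genes, and 0 in the others, where it called 0.571% and 0.258%. Ranges of 2 groups lay apart for 0, 0 and 1 of the 10 genes in these comparisons, beside 1.15%, 1.32% and 0.713% of all genes tested. Both comparisons with the center use the same 6 central libraries, and both with GFP+ the same 6 GFP+ libraries.

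**Figure D1:**
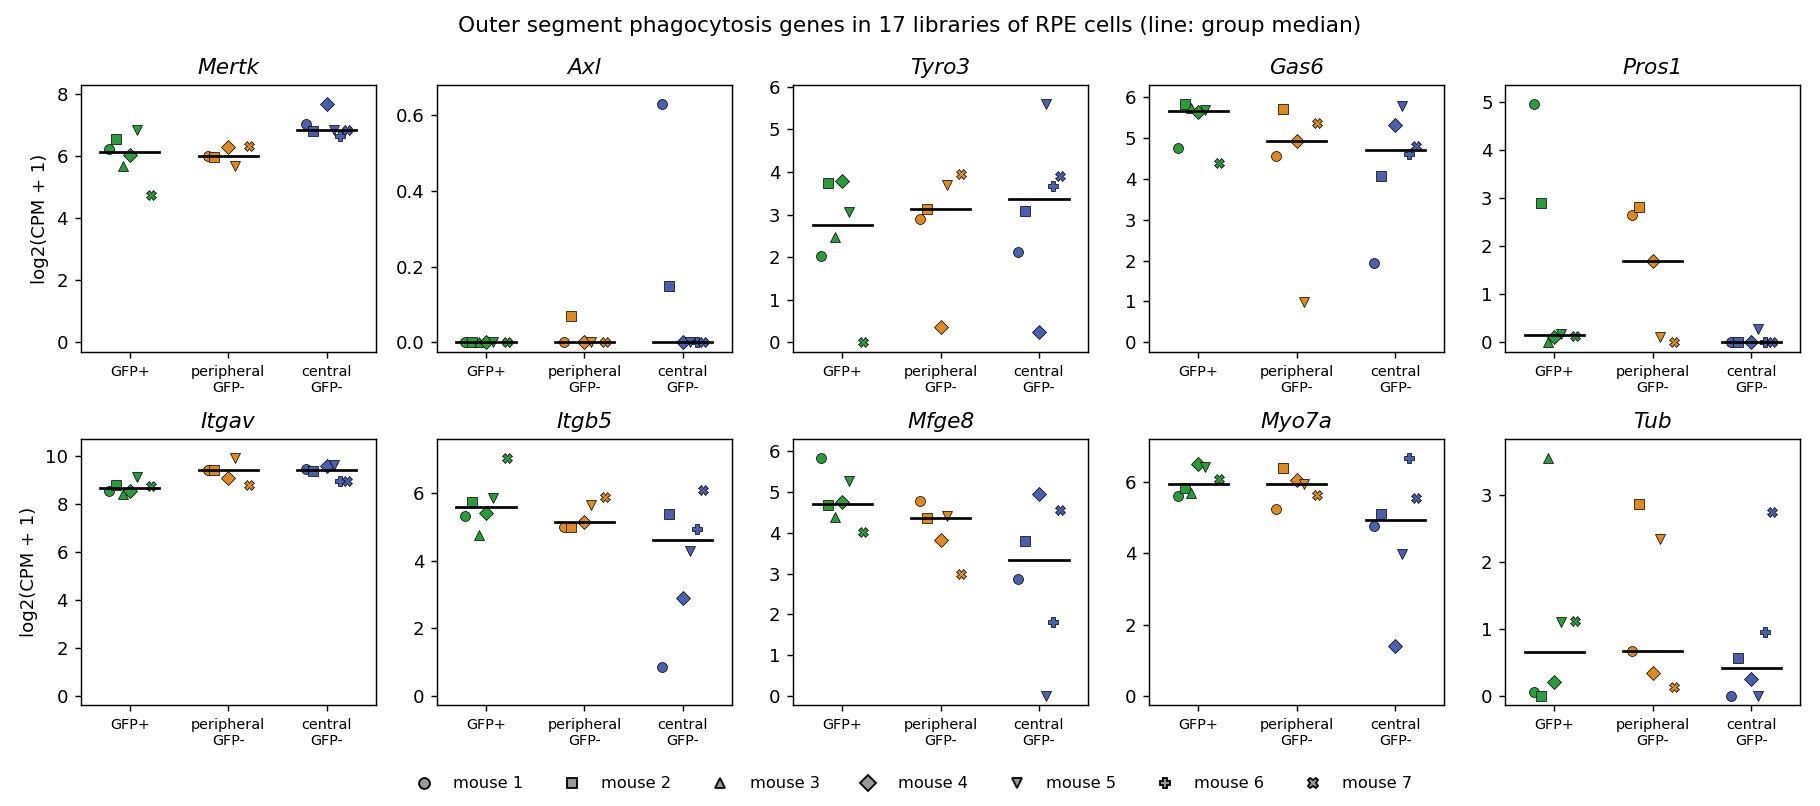
Level of each of the 10 genes in each of 17 libraries, as log2(CPM + 1) on the y axis with a scale of its own in each panel, by group on the x axis; the symbol gives the mouse and the line the group median. Central points of Mertk lie above all peripheral GFP- points, Axl lies near 0 throughout, and Pros1 is above 1 CPM only in peripheral libraries.

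Among the TAM receptors, Mertk was the one with a substantial level, and it was highest in the center. Mertk (ENSMUSG00000014361, chr2:128698956-128802894, plus strand, GRCm38) had 62.6, 61.4, 76.6, 50.2 and 79.4 CPM in the peripheral GFP- libraries of mice 1, 2, 4, 5 and 7. The GFP+ libraries had 25.9 CPM at the lowest, 68.8 at the median and 113 at the highest, and the central libraries 98.9, 112 and 202. With TMM scaling every central library thus exceeded every peripheral GFP- library, and 5 of the 6 GFP+ libraries, all but that of mouse 5, lay below all central ones. In plain CPM the groups overlapped, with 45.8 to 85.6 in peripheral GFP-, 29.3 to 127.5 in GFP+ and 51.2 to 147 in central libraries, and 1 of the 6 GFP+ libraries lay below all central ones.

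Group means of Mertk were 69.6 ± 30.7 CPM in GFP+ (SD, n = 6), 66.1 ± 12.0 in peripheral GFP- (SD, n = 5) and 127.5 ± 37.8 in central GFP--RPE (SD, n = 6). The log2 fold change of peripheral GFP- against central RPE was −0.94 (SE 0.36) and did not pass the test (edgeR, unadjusted p = 0.0195, adjusted p = 0.9995). Mertk was, with TMM scaling, the only one of the 10 genes whose groups did not overlap there, as was the case for 0.713% of the genes tested, 0.189% in the same direction. That of GFP+ against central RPE was −0.87 (SE 0.37, edgeR adjusted p = 0.725). Scaled to the library total these values were −0.59 and −0.34, and over all alternatives they ranged from −1.01 to −0.59 and from −1.06 to −0.34, with the lowest adjusted p, 0.247 and 0.330, from DESeq2. GFP+ and peripheral GFP--RPE differed by 0.09 (SE 0.34, edgeR adjusted p = 0.99996), which was −0.12 without the GFP+ library of mouse 5.

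Within the 5 mice with all groups, the central level of Mertk was above the peripheral GFP- level in 5 of 5 and above the GFP+ level in 4 of 5, with TMM factors and with library totals. The animal numbers fall into a pair of runs, mice 1 to 3 and mice 4 to 7. The ratio of peripheral GFP- to central means was 0.518 in the first run and 0.523 in the second, and that of GFP+ to central means 0.599 and 0.514. In bulk pools, fewer cells with a transcript and less of it per cell cannot be told apart. The mean mitochondrial share and the median summed CPM of photoreceptor markers were also highest in the center, and their part in the result was not tested.

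**Figure D2:**
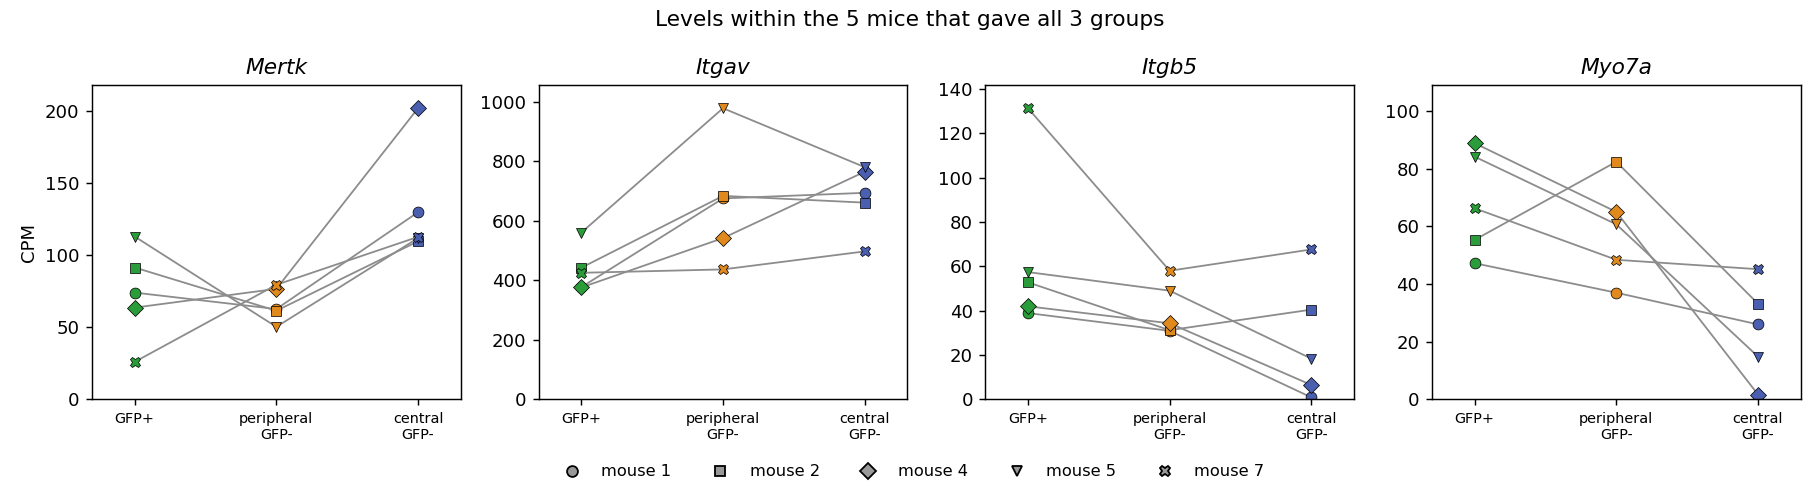
CPM of 4 genes (y axis, from 0) in the 3 groups (x axis) of the 5 mice that gave all of them, with lines joining libraries of 1 mouse. Lines of Mertk rise from the peripheral GFP- to the central group in 5 of 5 mice, and Itgav is lowest in the GFP+ library in 5 of 5 with TMM scaling, as plotted, and in 3 of 5 with library totals.

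Tyro3 (ENSMUSG00000027298, chr2:119797733-119818104, plus strand), the TAM receptor best known from the nervous system, was low. It had 6.41, 7.78, 0.274, 11.9 and 14.6 CPM in the peripheral GFP- libraries, 0, 5.95 and 12.9 (lowest, median and highest) in the GFP+ libraries and 0.192, 9.55 and 47.4 in the central ones. The central library of mouse 5 alone, which had the fewest genes of all, gave the 47.4 CPM. Groups overlapped throughout, and the log2 fold change of GFP+ against central RPE was −1.05 (SE 1.36, edgeR adjusted p = 0.9999). That between the peripheral and central GFP- groups was −0.73 and turned to 0.19 without the central library of mouse 5.

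Axl (ENSMUSG00000002602, chr7:25757273-25788705, minus strand), which serves macrophages and many other cells, had 9 counts in the whole table. Of these 6 came from the central library of mouse 1, 2 from that of mouse 2 and 1 from the peripheral GFP- library of mouse 2. All 6 GFP+ libraries had 0 counts, which allows up to 3 counts, or 0.112 to 0.229 CPM, in each (counting error only). Axl passed the filter in no comparison, and no fold is given.

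Because a longer transcript draws more reads, levels of different genes were compared as CPM per kb of exon. On that scale Mertk made up most of the summed level of the 3 TAM receptors: 94.3% ± 4.4 (SD, n = 6) for GFP+, 91.8% ± 5.3 (SD, n = 5) for peripheral GFP- and 92.4% ± 8.1 (SD, n = 6) for central GFP--RPE. The lowest share, 77.1%, was that of the central library of mouse 5, and the groups overlapped. As a share of CPM without length the mean over the 17 libraries was 90.4% in place of 92.9%.

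Of the TAM ligands, Gas6 (ENSMUSG00000031451, chr8:13465374-13494490, minus strand) was measured in every library and Pros1 only in some. Gas6 had 22.4, 51.5, 29.2, 0.980 and 40.4 CPM in the peripheral GFP- libraries, 19.9, 49.4 and 56.0 in the GFP+ libraries and 2.82, 25.3 and 54.1 in the central ones. By the ratio of highest over lowest library the GFP+ group was the tightest, at 2.81, against 52.6 in peripheral GFP- and 19.2 in central GFP--RPE. The larger ratios rest on the peripheral GFP- library of mouse 5 (12 counts, 0.980 CPM) and the central library of mouse 1 (31 counts, 2.82 CPM). The next lowest libraries of these groups had 22.4 and 15.9 CPM. Means were 42.1 ± 15.2, 28.9 ± 19.1 and 27.0 ± 17.8 CPM (SD, n = 6, 5 and 6), and no comparison passed the test. In GFP+ the log2 fold change was 0.65 (SE 0.67, edgeR adjusted p = 0.9999) against the center and 0.57 (SE 0.64, edgeR adjusted p = 0.99996) against peripheral GFP--RPE.

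With TMM scaling the ratio of GFP+ to central means of Gas6 was 4.77 in the first run of animal numbers (3 and 2 libraries) and 1.10 in the second (3 and 4 libraries). In plain CPM the GFP+ libraries of the second run (mice 4, 5 and 7) had 58.8, 56.9 and 22.5. Its central libraries (mice 4, 5, 6 and 7) had 28.2, 24.8, 21.9 and 18.7. Of the 5 mice with all groups, GFP+ exceeded central in 3 with TMM scaling and in 5 with library totals. The groups overlapped on both scales. The difference of the log2 fold changes between the runs was −2.10 and did not pass edgeR's test of it (unadjusted p = 0.155, adjusted p = 0.9998). That test called 0 of 9286 genes, 372 of them at an unadjusted p under 0.05. Exons of Gas6 overlap those of Tmem255b, on the other strand, over 34 bases, and Tmem255b had 0 counts in all libraries but 1, which had 6.

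Pros1 (ENSMUSG00000022912, chr16:62854307-62929346, plus strand), the gene of protein S, had counts in the periphery and almost none in the center. Its counts in the GFP+ libraries of mice 1, 2, 3, 4, 5 and 7 were 811, 134, 0, 1, 2 and 2. Those of the peripheral GFP- libraries of mice 1, 2, 4, 5 and 7 were 97, 121, 49, 1 and 0, and the central libraries had 0 except for 1 count in that of mouse 5. With a limit of 10 counts, Pros1 was thus detected in 5 of 11 peripheral libraries, those of mice 1, 2 and 4, and in 0 of 6 central ones.

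The mean of Pros1 was 6.17 ± 12.1 CPM (SD, n = 6) in GFP+ and 2.73 ± 2.84 (SD, n = 5) in peripheral GFP--RPE. All 6 central libraries were at or under 3 counts each, the number that a count of 0 allows. The fold of the group means is therefore a lower bound as to counting error in the center only. The mean was at least 19.0-fold higher in GFP+ than in central RPE, and at least 8.40-fold higher in peripheral GFP- than in central RPE. In GFP+, 4 of the 6 libraries were also at or under 3 counts, and the median of 0.115 CPM was below the mean central limit of 0.325 CPM. Without the GFP+ library of mouse 1 the first bound was 4.17. Pros1 did not pass edgeR's filter in either comparison with the center. With all genes kept, its edgeR adjusted p was 0.184 for GFP+ and 0.363 for peripheral GFP- against central RPE, and the groups overlapped in both. DESeq2 gave an adjusted p of 0.00982 for GFP+ against central RPE, where it called 1.62% of 12442 genes, and 0.0431 for peripheral GFP- against central RPE. Between GFP+ and peripheral GFP--RPE the edgeR log2 fold change was 1.18 (SE 1.90, adjusted p = 0.99996), and −1.23 once the fit had a term for the run.

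Of the summed level of Gas6 and Pros1 per kb of exon, Gas6 made up 91.8% ± 16.8 (SD, n = 6) for GFP+, 94.2% ± 4.6 (SD, n = 5) for peripheral GFP- and 99.96% ± 0.10 (SD, n = 6) in central GFP--RPE. The lowest share, 57.8%, was that of the GFP+ library of mouse 1. On this scale Gas6 exceeded Pros1 in each of the 17 libraries.

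**Figure D3:**
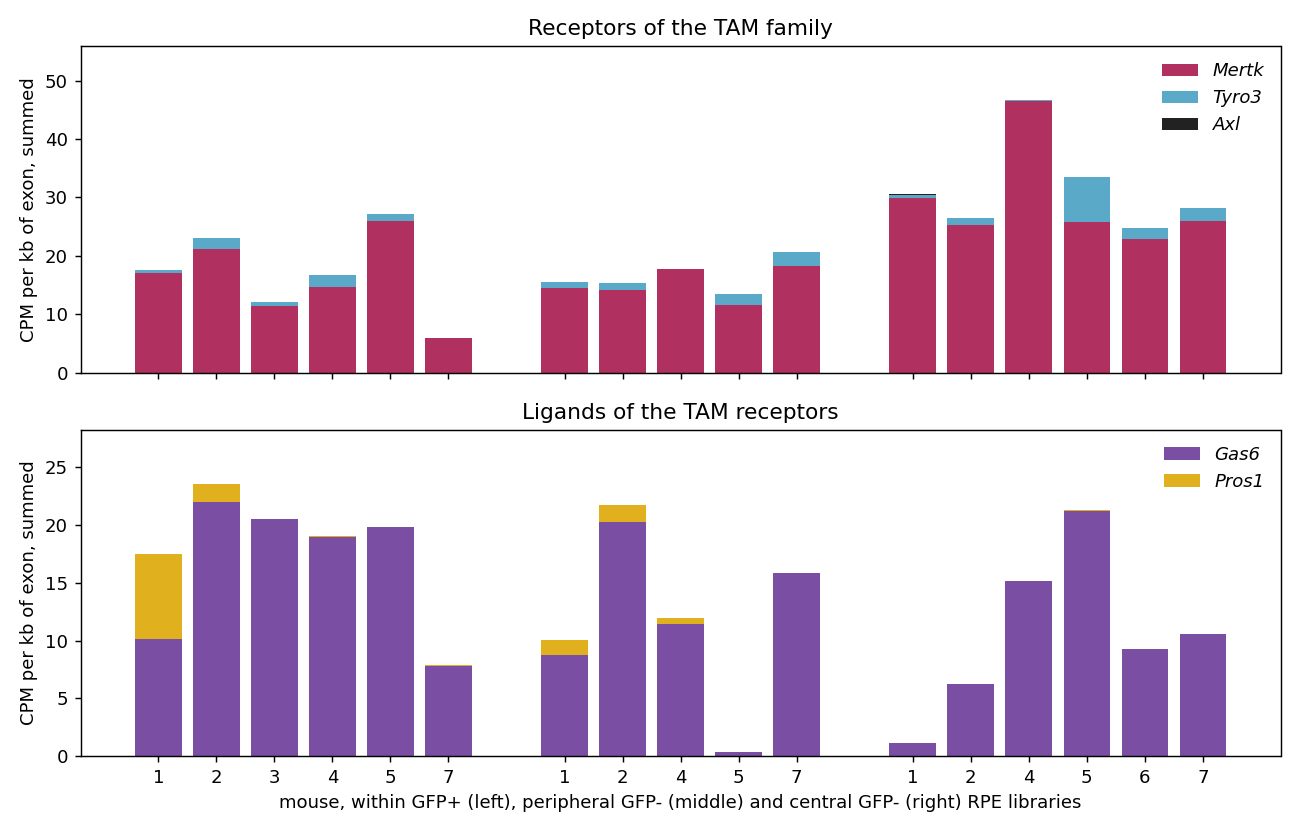
Stacked levels in CPM per kb of exon (y axis, from 0) of the TAM receptors (top) and of their ligands (bottom) in each library, ordered by group and mouse on the x axis. Mertk makes up 77.1% or more of the receptor level in every library, and Pros1 has 10 or more counts in 5 peripheral libraries, GFP+ of mice 1 and 2 and GFP- of mice 1, 2 and 4.

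Of the integrin subunits, Itgav, which encodes alpha v, had the highest level of the 10 genes, and with TMM scaling its mean was lowest in GFP+-RPE. Itgav (ENSMUSG00000027087, chr2:83724397-83806916, plus strand) had 675, 684, 542, 978 and 436 CPM in the peripheral GFP- libraries of mice 1, 2, 4, 5 and 7. The GFP+ libraries had 336 at the lowest, 401 at the median and 560.1 at the highest, and the central libraries 496, 677 and 780.1. Of the 6 GFP+ libraries, 5 lay below all central ones and 4 below all peripheral GFP- ones. The GFP+ level was the lowest in 5 of 5 mice with all groups. In plain CPM it was the lowest in 3 of 5, since it was above the central level in mouse 5 (632 against 357) and above both in mouse 7 (480.2 against 395 peripheral and 343 central). On that scale 0 of the 6 GFP+ libraries lay below all central ones and 0 below all peripheral GFP- ones.

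Means of Itgav were 419 ± 78.7 CPM (SD, n = 6) in GFP+, 663 ± 204 (SD, n = 5) in peripheral GFP- and 649 ± 126 (SD, n = 6) in central GFP--RPE. The log2 fold change of GFP+ was −0.63 (SE 0.21, edgeR unadjusted p = 0.00961, adjusted p = 0.406) against central and −0.65 (SE 0.22, unadjusted p = 0.00911, adjusted p = 0.657) against peripheral GFP--RPE, and neither passed the test. Scaled to the library total they were −0.11 and −0.50, and over all alternatives they ranged from −0.73 to −0.11 and from −0.77 to −0.46, with lowest adjusted p-values of 0.199 and 0.181. With TMM scaling the ratio of GFP+ to central means was 0.568 in the first run of animal numbers and 0.715 in the second. In plain CPM the GFP+ libraries of the second run (mice 4, 5 and 7) had 456, 632 and 480. Its central libraries (mice 4, 5, 6 and 7) had 557, 357, 461 and 343, so that GFP+ was not the lower group in that run. Between the peripheral and central GFP- groups Itgav differed by 0.04 (SE 0.25, edgeR adjusted p = 0.9995), and by 0.39 with library totals. Exons of Itgav overlap 634 bases of the transcript Gm13684 on the other strand, which has no row in the table.

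Without the GFP+ library of mouse 5, the GFP+ and central ranges of Mertk and Itgav no longer overlapped, so that the number of such genes rose from 0 to 2 of the 7 that passed the filter. With TMM scaling, GFP+ ranges lay wholly below the central ones for 0.334% of the genes tested over all 12 libraries of that comparison. Without the GFP+ library of mouse 5 this share was 0.991%. The same GFP+ library had the highest mitochondrial share of its group, 17.2%.

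Itgb5 (ENSMUSG00000022817, chr16:33829665-33949338, plus strand), which encodes beta 5, was ordered the other way. It had 30.9, 31.2, 34.3, 49.0 and 58.0 CPM in the peripheral GFP- libraries, 26.3, 47.4 and 131 (lowest, median and highest) in the GFP+ libraries and 0.820, 23.9 and 67.6 in the central ones. The GFP+ library was above both other libraries of the same mouse in 5 of 5 mice, while the groups overlapped. The log2 fold change was 1.10 (SE 0.77, edgeR adjusted p = 0.9999) against central and 0.53 (SE 0.41, adjusted p = 0.99996) against peripheral GFP--RPE, and the latter was 0.12 without the GFP+ library of mouse 7, which had the 131 CPM.

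Per kb of exon, the level of Itgav over that of Itgb5 had a median of 3.08 in GFP+ (1.07 to 4.23), 6.60 in peripheral GFP- (2.49 to 7.25) and 9.82 in central GFP--RPE (2.43 to 280). Itgav exceeded Itgb5 in all 17 libraries. The ratio of 280 came from the central library of mouse 1, where Itgb5 had 9 counts.

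Mfge8 (ENSMUSG00000030605, chr7:79133768-79149060, minus strand), the gene of the integrin ligand MFG-E8, had 26.5, 19.7, 13.1, 20.1 and 6.92 CPM in the peripheral GFP- libraries, 15.3, 25.2 and 56.4 in the GFP+ libraries and 0, 9.55 and 29.8 in the central ones. The GFP+ library exceeded the peripheral GFP- library in 5 of 5 mice and the central one in 3 of 5, or 5 of 5 with library totals. Fitted log2 fold changes were 1.29 (SE 1.02, edgeR adjusted p = 0.9999) against central and 0.80 (SE 0.56, adjusted p = 0.99996) against peripheral GFP--RPE. With the 3 central libraries of fewest genes left out, a choice made after the values were seen, all GFP+ libraries lay above the remaining central ones for Mfge8, as for 2.48% of the genes tested, with a log2 fold change of 2.06 (edgeR adjusted p = 0.652).

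Myo7a (ENSMUSG00000030761, chr7:98051060-98119524, minus strand), the gene of the motor myosin VIIa, had 37.0, 82.4, 65.0, 60.7 and 48.4 CPM in the peripheral GFP- libraries of mice 1, 2, 4, 5 and 7. The GFP+ libraries had 47.2, 60.8 and 88.8, and the central ones 1.63, 29.5 and 101. The central library lay below both peripheral libraries of the same mouse in 5 of 5 mice. With TMM scaling, however, the central library of mouse 6, which has no peripheral partner, was the highest of all 17. In plain CPM it had 93.9, below the GFP+ libraries of mice 4 (108) and 5 (95.0). Fitted log2 fold changes were 0.83 (SE 0.66, edgeR adjusted p = 0.9999) for GFP+ and 0.67 (SE 0.75, adjusted p = 0.9995) for peripheral GFP- against central RPE. Without the central library of mouse 6 the former was 1.43 (adjusted p = 0.812) and the ranges of GFP+ and central RPE no longer overlapped, with GFP+ wholly higher for 1.11% of the genes tested over these libraries.

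Tub (ENSMUSG00000031028, chr7:108950338-109034460, plus strand), the gene of the tubby protein, was near the limit of detection. It had 250 counts in the GFP+ library of mouse 3 and 0, 1, 2, 17 and 25 in the other GFP+ libraries, 11, 125, 6, 50 and 1 in the peripheral GFP- libraries and at most 49 in a central one. Group means were 2.21 ± 4.22, 2.26 ± 2.78 and 1.22 ± 2.23 CPM (SD, n = 6, 5 and 6), so that the spread exceeded the mean in each group. The exons of Tub overlap those of Ric3 over 149 bases and of Gm26599 over 1056 bases on the other strand. Ric3 had 106 to 1008 counts per library, and since the use of strand in counting is not given in the sources used here, counts of Tub and its partners cannot be told apart there.

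**Figure D4:**
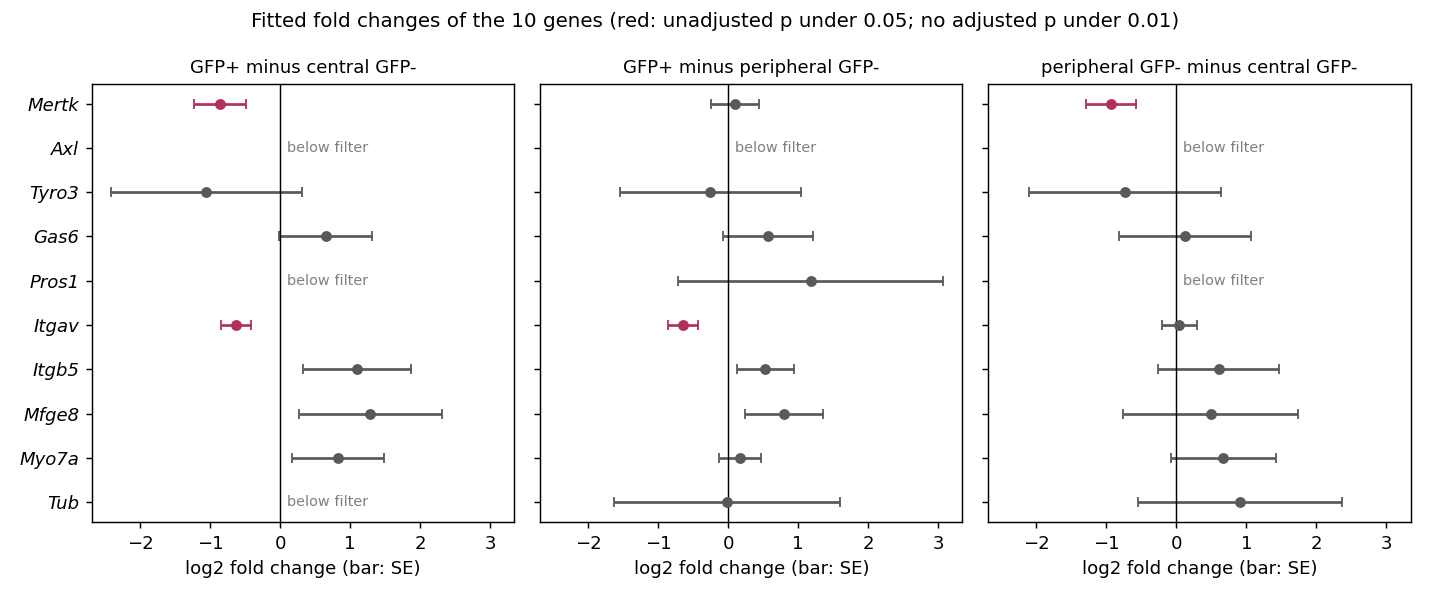
Log2 fold change (x axis) of each gene (y axis) in the 3 comparisons, with the standard error of the edgeR fit as the bar; genes that did not pass the low-count filter have no point. Mertk and Itgav have the shortest bars against the center, at −0.87 and −0.63, and an unadjusted p under 0.05, and no adjusted p was under 0.406.

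Ordered by mean CPM per kb of exon over the 17 libraries, Itgav came first (53.2), followed by Mertk (20.5), Gas6 (12.9), Itgb5 (11.8), Myo7a (6.23), Mfge8 (4.26), Tyro3 (1.57), Pros1 (0.732), Tub (0.224) and Axl (0.00823). Itgav exceeded Mertk in 17 of 17 libraries, whereas Mertk exceeded Gas6 in only 12 and Gas6 Itgb5 in 11, and the ranges of all these neighbours overlapped. In GFP+-RPE, Gas6 (16.5), Itgb5 (16.4) and Mertk (16.0) were close together, and in the center Mertk (29.4) stood above Gas6 (10.6) with no overlap. Itgav ranked above 96.5% and Mertk above 92.4% of the 21853 genes with an annotated length, and Axl above 27.9%.

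The spread of the phagocytosis genes between libraries was set beside that of other genes. Of 7046 genes with a mean of at least 10 CPM, 88.0% had a larger SD of log2(CPM + 1) in central than in GFP+-RPE, as did 5 of the 6 phagocytosis genes at that level. Mertk was the exception (0.37 in the center and 0.74 in GFP+-RPE). Itgav was among the steadiest, with a coefficient of variation of 30.7% over the 17 libraries that was above that of 6.29% of genes, and Itgb5 was at the middle (69.2%, above 49.0% of genes).

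The gene with the most similar ordering of the 17 libraries was Tubg1 for Mertk (Spearman correlation 0.79), Grik1 for Itgav (0.85), Map2k1 for Itgb5 (0.85), Hps5 for Gas6 (0.78), Nbn for Mfge8 (0.81), Rabl6 for Myo7a (0.83), Ecpas for Tyro3 (0.83), BC003965 for Pros1 (0.82) and Agap3 for Tub (0.81). Each is the highest of 7046 genes compared, with libraries of 3 groups and shared mice as points. Among the 6 phagocytosis genes with a mean of at least 10 CPM, this correlation between pairs ran from −0.45 (Mertk and Myo7a) to 0.41 (Itgb5 and Myo7a). Itgav and Itgb5 had −0.39 and Mertk and Itgav 0.39.

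Beyond the 10 genes, 80 further genes of binding, engulfment signalling, transport, LC3-associated phagocytosis and phagosome maturation were in the table. None was called by edgeR, where 64 passed the filter in GFP+ against central RPE, 68 against peripheral GFP--RPE and 63 between the GFP- groups, and DESeq2 called 1, Gpnmb, in GFP+ against central RPE, beside its 1.62% of all genes. At an unadjusted p under 0.05, 4 were higher and 1 lower in GFP+ than in central RPE (2.14% and 3.66% of all genes tested), 7 higher and 3 lower than in peripheral GFP--RPE (2.75% and 2.83%), and 1 higher and 0 lower in peripheral GFP- than in central RPE (1.03% and 1.67%). The median log2 fold change of the genes that passed was 0.09, 0.21 and 0.03, beside the medians of all genes given above.

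Gpnmb, a glycoprotein of melanosomes and phagosomes, stood apart among the genes of phagosome maturation. It had 308.6 ± 233.0 CPM in GFP+ (133.6 to 754.7), 86.3 ± 67.5 in peripheral GFP- (20.2 to 167) and 16.2 ± 15.7 in central GFP--RPE (0.117 to 37.6), so that all GFP+ libraries lay above all central ones, as did 0.818% of all genes tested. The log2 fold change of GFP+ against central RPE was 4.26 (SE 0.91, edgeR adjusted p = 0.0729, with the mouse as a block 0.0545, DESeq2 0.00205). Ctsd, the gene of the lysosomal protease cathepsin D, which was picked out after its values were seen, had 4330 CPM in GFP+ against 1994 in central and 2201 in peripheral GFP--RPE (log2 fold changes 1.13 and 1.00, edgeR adjusted p = 0.263 and 0.685). Vps33b, a subunit of endosomal tethering complexes, had 14.1 against 1.51 CPM in GFP+ and central RPE (log2 fold change 3.22, edgeR adjusted p = 0.807).

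The lowest fold changes of GFP+ against central RPE in this wider list were those of Atg7 and Arpc3. Atg7, which takes part in the conjugation of LC3 to membranes, had 16.3 against 66.0 CPM (log2 fold change −2.01, edgeR adjusted p = 0.485). Arpc3, a subunit of the actin-nucleating Arp2/3 complex, had 14.2 against 27.9 CPM (−0.97, edgeR adjusted p = 0.9999). Against peripheral GFP--RPE the highest besides Gpnmb (1.85, adjusted p = 0.562) was Adam17 (1.81, adjusted p = 0.99996), a sheddase, and the lowest were Itga5 (−5.01, adjusted p = 0.708) and Ush1c (−2.84, adjusted p = 0.99996), both with means under 5 CPM. Between the peripheral and central GFP- groups the highest were Rubcn (3.36) and Pik3c3 (2.59), which act in LC3-associated phagocytosis, and the lowest Atg7 (−1.48) and Grb2 (−1.06), each with an edgeR adjusted p of 0.9995. Rac1, the small GTPase that remodels actin during engulfment, had 184 to 294 CPM in peripheral GFP- and 296 to 378 in central GFP--RPE. These ranges did not overlap, as was the case in the same direction for 0.189% of all genes tested there. In plain CPM they were 198 to 331 and 173 to 363, which overlap. The log2 fold change of Rac1 was −0.41 (SE 0.24, edgeR adjusted p = 0.9995).

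**Figure D5:**
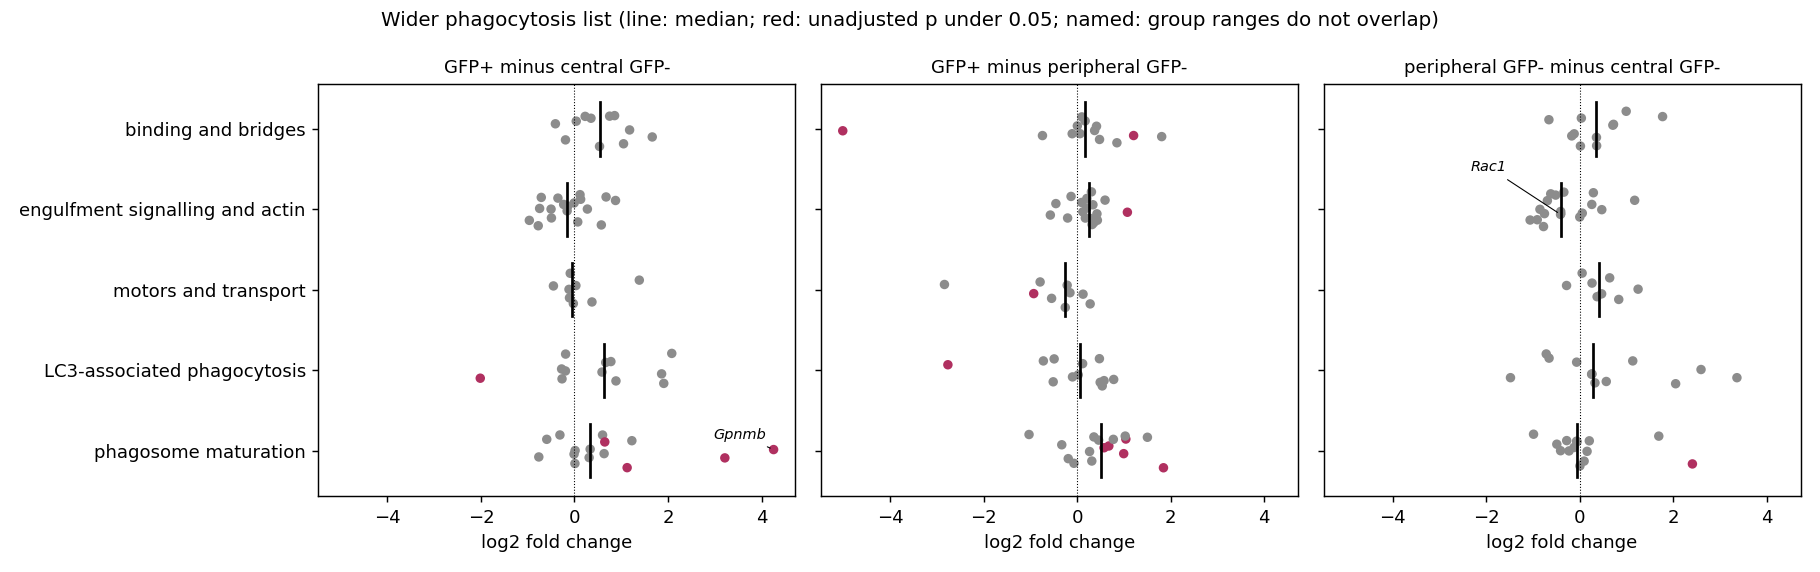
Log2 fold changes (x axis) of the genes of the wider list that passed the filter, by role (y axis), in the 3 comparisons; each point is a gene and the line is the median of the role. Gpnmb lies at 4.26 in GFP+ against central RPE.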

How the data were processed

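Groups and mouse numbers came from the sample labels. The authors deposited estimated counts per gene symbol as whole numbers, without normalization; per the labels' processing notes the tools were fastp and Salmon (versions not given there) with build GRCm38.p6, and the use of strand is not given in the sources used here. Lengths and positions came from GENCODE M21 (GRCm38), in which 21853 of 22253 symbols (98.2%) were found, and promoter windows from RefSeq.

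CPM were scaled by TMM over the 17 libraries (totals 9896118 to 22467079). A library without a count was given an upper limit of 3 counts, which covers counting error only, because reads were not collapsed by molecular identifiers. Each comparison used edgeR 4.0.16 (R 4.3.3) with filterByExpr, TMM, the quasi-likelihood test and only the libraries of its groups. The paper's methods name DESeq2, which was run as an alternative (version 1.42.0). The other alternatives were RLE size factors, no filter, 10 counts in 5 libraries, all groups in 1 fit, a replicate block for the mouse, a term for the run of animal numbers, mitochondrial genes left out and each library left out; counts scaled to the library total without TMM, transcript length in place of exon length and 3 central libraries left out were added after seeing the data. The fit was run on simulated counts with known changes to check the code, and the share recovered is not given here. The biological coefficient of variation, the spread between libraries beyond counting error, was 1.22 in GFP+ against central RPE. It was 1.07 against peripheral GFP--RPE and 1.29 between the GFP- groups. With so wide a spread, a gene that was not called is not shown to be unchanged.

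By the labels, same-numbered libraries share an animal number or, for mouse 1, a pair of animal numbers. Their deviations from the group means, over 15 pairs, correlated at −0.0194 to 0.0927, with 0 over 0.1. No library was a copy of another (136 pairs). The 10 genes and the lists were chosen with earlier results of these data known. Named besides the 10 genes were, of the wider list, genes called, genes that passed the filter with groups that do not overlap and a mean of at least 10 counts in the higher group, and the 2 highest and 2 lowest fold changes of each comparison; for each of the 10 that passed the filter, the gene of highest Spearman correlation; markers; and genes whose exons overlap 1 of the 10. Ctsd was added after its values were seen. A photoreceptor marker of the list is not reported here. Of the other marker lists, 8 endothelial genes summed to at most 25.3 CPM in any library and 7 stromal genes to at most 2.43 CPM. The 5 melanocyte and Schwann cell genes summed to 52.7 to 253 CPM, mostly Sox10, and the 6 Mueller glia genes to 2766 to 8567 CPM, mostly Apoe and Glul. Of the Mueller glia list, Aqp4, Slc1a3 and Kcnj10 had group means of at most 2.09 CPM and Dkk3 of at most 8.93 CPM.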

Additional observations from a re-analysis of the deposited data

Results flagged for a closer look

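In 29 gene and group combinations, the highest and the lowest library were checked for standing apart from the rest by Dixon's rule. For values with a normal distribution, chance meets this rule in about 1 of 20 groups. The CPM used here were often skewed, and where all other libraries of a group were at 0, 1 count was enough to meet it. The rule was met in 9, a number that therefore cannot be set against that rate. Among the receptors these were Mertk in the central library of mouse 4 (202 CPM, next 129.9), Tyro3 in the central library of mouse 5 (47.4 CPM, next 14.1), and Axl in the central library of mouse 1 (0.546 CPM, 6 counts) and the peripheral GFP- library of mouse 2 (0.0502 CPM, 1 count). The rule was applied to CPM with TMM scaling only. In plain CPM the central library of mouse 4 had 147 for Mertk (next 139), and that of mouse 5 had 21.7 for Tyro3 (next 10.8). Among the ligands, Pros1 stood apart in the GFP+ library of mouse 1 (30.2 CPM, next 6.47) and in the central library of mouse 5 (0.221 CPM, 1 count). The other values were Itgb5 in the GFP+ library of mouse 7 (131 CPM, next 57.4) and Tub in the GFP+ library of mouse 3 (10.8 CPM, next 1.17) and the central library of mouse 7 (5.71 CPM, next 0.942). Of these 9, 3 rest on at most 6 counts.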

How the results depend on the processing

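Of 497 alternative values of the 24 tested fold changes, 474 kept their direction and 23 turned, all of them in 7 fold changes near 0 or of low genes. Pros1 in GFP+ against peripheral GFP--RPE was −1.23 with the run as a covariate, Tub there was 0.016 with no filter and 0.14 with library totals in place of TMM, Itgav in peripheral GFP- against central RPE was −0.048 under a replicate block for the mouse, and Tyro3 there was 0.13 without the 3 central libraries of fewest genes. With library totals Gas6 and Tyro3 in GFP+ against central RPE were 1.40 and −0.15. With each library left out, the values in GFP+ against peripheral GFP--RPE ran from −0.12 to 0.27 for Mertk, from −0.57 to 0.046 for Tyro3 and from −2.16 to 0.82 for Tub. Between the peripheral and central GFP- groups they ran from −1.05 to 0.19 for Tyro3, from −0.19 to 0.47 for Gas6 and from −0.12 to 0.16 for Itgav.

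The number of all genes called was less stable. In GFP+ against central RPE it was 4, and 202 with DESeq2, 56 with the replicate block, 2 with 10 counts in 5 libraries, 1 with the run as a covariate and 1 to 3 with each library left out. Against peripheral GFP--RPE it was 4, and 67 with DESeq2, 0 with all groups in the fit, 0 with the replicate block, 1 with the run and 0 to 5 with each library left out. Between the GFP- groups it was 0, and 29 with DESeq2 and 1 without the 3 central libraries. The number of phagocytosis genes called moved only with DESeq2, from 0 to 1 in GFP+ against central RPE. The replicate block changed no call of a phagocytosis gene, but it moved the median log2 fold change of all genes from 0.00067 to 0.57 in GFP+ against central RPE. With TMM scaling the number with ranges that do not overlap in that comparison was 0, then 1 without the 3 central libraries and 0 to 2 with each library left out (2 without the GFP+ library of mouse 5, 1 without the central library of mouse 6). Between the GFP- groups it was 1 (Mertk) and 0 with library totals. The cause of these differences was not tested. The share of Mertk stayed between 90.4% and 93.9% and that of Gas6 between 93.5% and 97.7%. Axl, Pros1 and Tub had 16, 12 and 7 libraries at or under 3 counts, between which a difference in level was not detectable.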
